A study of Homo sapiens with 6 samples.

Results

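This account covers 55 genes for proteins that hepatocytes secrete into plasma, or that act with them on cell surfaces, among 20388 gene symbols measured by RNA sequencing in MHCC-97H cells. The genes were chosen by name from transport and acute-phase proteins, apolipoproteins, clotting and fibrinolysis factors and complement, and all 55 were in the table. MHCC-97H is an established human hepatocellular carcinoma line with high metastatic potential, labelled wild type. It was exposed for 24 h to the solvent DMSO (3 libraries) or to 2 µM GK921 (3 libraries), an inhibitor of transglutaminase 2. Both groups came from the same line grown in the same serum-supplemented medium, and the RNA is that of 1 tumour line, not of liver tissue. Whether the 3 libraries in each group represent independent cultures is not stated, and the p-values therefore reflect only library-to-library spread, possibly technical.

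Hepatocytes make most of the protein of blood plasma. Albumin and transthyretin carry hormones and lipids, apolipoproteins build and route lipoprotein particles, and clotting factors form a chain of proteases that ends in the conversion of fibrinogen to fibrin. Complement is a second chain of proteases that marks cells and can open pores in their membranes, and proteins on the cell's own surface hold it in check. The transcription of many of these genes in liver depends on hepatocyte factors such as HNF4A and the C/EBP family, and hepatocellular carcinoma cells can lose much of it.

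Levels are in FPKM, which divides fragments by transcript length and by library total, so levels can be compared between genes. A gene was called silent when it was under 1 FPKM in every library. Testing with limma covered genes whose mean across the libraries reached 1 FPKM, and was done on log2(FPKM + 1), and those with a Benjamini-Hochberg adjusted p under 0.05 over all 11573 tested genes were called. Most tested genes differed: 75.9% were called, 46.8% higher and 29.2% lower after GK921. The middle of all tested genes lay at a log2 change of 0.16, so each change below can also be read relative to that shift. Within a group, libraries correlated at 0.993 to 0.995 on this scale. The sources used here give no read totals. Steps between low values put the relative depth of the DMSO libraries at 0.872 to 1 and of the GK921 libraries at 0.768 to 0.862, so values near 0 are coarser after GK921. The RNA came from bulk cells, so fewer cells with a transcript and less of it per cell cannot be told apart.

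Most of the plasma protein programme was at or near 0 in both groups. Of the 55 genes, 30 were silent, 5 more rose above 1 FPKM in some library but had a mean under 1, and 20 were tested. Over the whole table, 40.2% of the symbols were silent, against 54.5% of these genes. All 12 genes on a list of hepatocyte markers (ALB, TTR, TF, APOA1, APOB, FGB, SERPINA1, CPS1, TAT, CYP3A4, CYP2E1 and ASGR1) were silent. The highest single value among them was 0.63 FPKM. ALB, TTR, TF, APOA1, APOB and FGB are also among the 55 genes, so only the remaining markers add to the counts above. The name hepatocyte plasma proteins therefore describes where these genes are known to act, not the state of this line. The summed level of these 12 was 1.99 to 2.78 FPKM in the DMSO libraries and 1.16 to 1.35 in the GK921 libraries. Of 8 cholangiocyte markers 3 were silent, with CFTR listed at 0 and sums of 609.9 to 632.4 FPKM in DMSO and 408.2 to 422.8 after GK921, mostly SPP1 and KRT19. These markers did not move together. Of the 5 tested, KRT7 and MUC1 were called higher and SPP1, KRT19 and SOX9 lower, SOX9 with a mean of at least 1 FPKM in DMSO alone. Of 8 stellate cell and fibroblast markers 6 were silent, with DES listed at 0 and sums of 48.5 to 52.6 FPKM against 22.6 to 28.8, mostly LUM and DCN. Both of these were called lower, DCN with a mean of at least 1 FPKM in DMSO alone. PDGFRB, which was silent, went the other way, with means of 0.0167 FPKM in DMSO and 0.327 after GK921. Of 8 endothelial markers 6 were silent, with CDH5 and ERG listed at 0 and sums of 6.39 to 6.93 against 6.94 to 8.63. KDR was called higher (means of 1.62 and 2.69 FPKM) and PECAM1 was not called. Of 8 macrophage and leukocyte markers 5 were silent, with sums of 105.5 to 114.7 against 97.3 to 113.2, nearly all CD68. CD68 was not called, and ITGAM was called higher (means of 1.23 and 3.13 FPKM). The part of these markers in the results below was not tested.

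Among the 20 tested genes, 7 rose and 8 fell, and 5 were not called. The 15 calls are 75% of the tested genes, near the 75.9% of all tested genes. A call with an absolute log2 change of at least 1 was made for 5 of the 20 (PLAT and CD55 higher, APOH, F5 and PROS1 lower), and for 16.1% of all tested genes. The median log2 change of the 20 genes was -0.09, against 0.16 for all tested genes. None of the 20 entered the test through one group alone, since the lowest group mean among them was 1.3 FPKM. Values of the groups were apart for 15 of the 20, and for 78% of all tested genes. The balance of rises and falls depended on scaling: with libraries rescaled by median ratios, 4 of the genes were higher and 11 lower, against 36.9% higher and 37.3% lower among all tested genes. Quantile normalization gave 5 higher and 11 lower, against 37.9% and 35.2%.

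**Figure D1:**
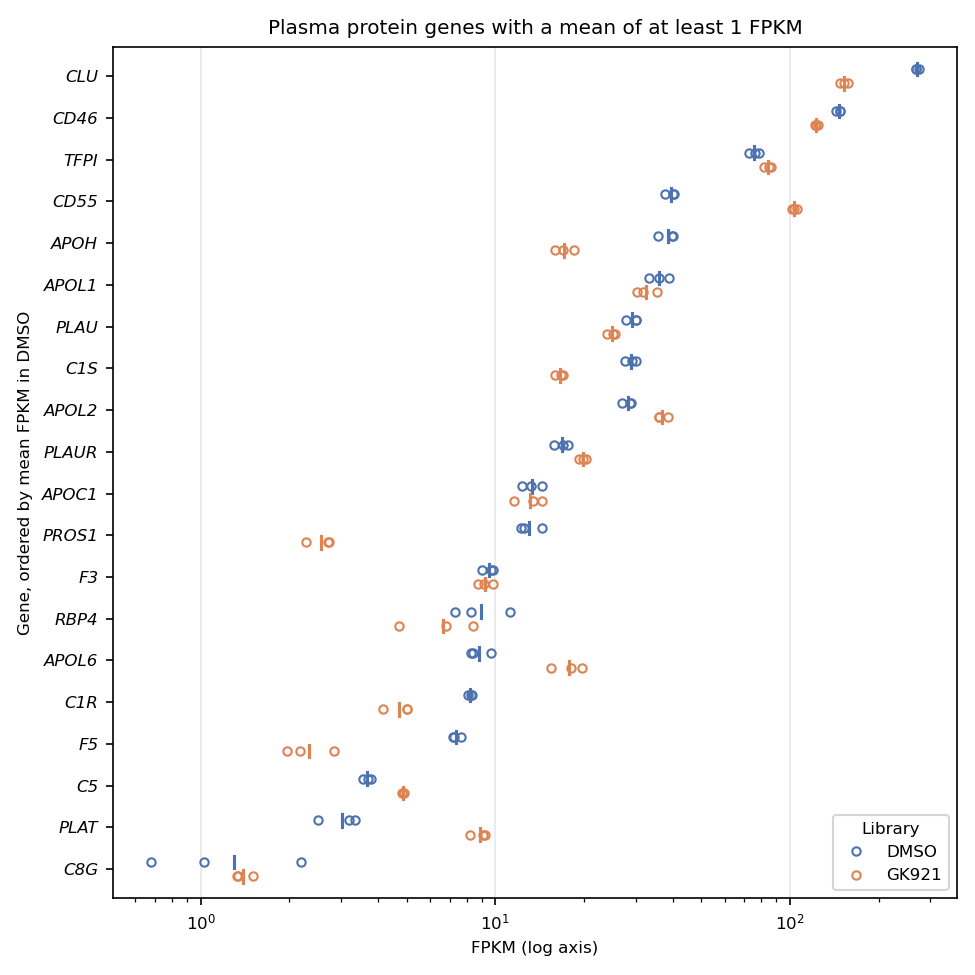
FPKM of the 20 tested plasma protein genes in each library, on a log axis, with DMSO in blue and GK921 in orange; open circles are libraries and ticks are group means (n = 3). CLU was the most abundant in both groups, and the circles of PROS1, F5, PLAT and CD55 lie in separate clusters by group.

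**Figure D2:**
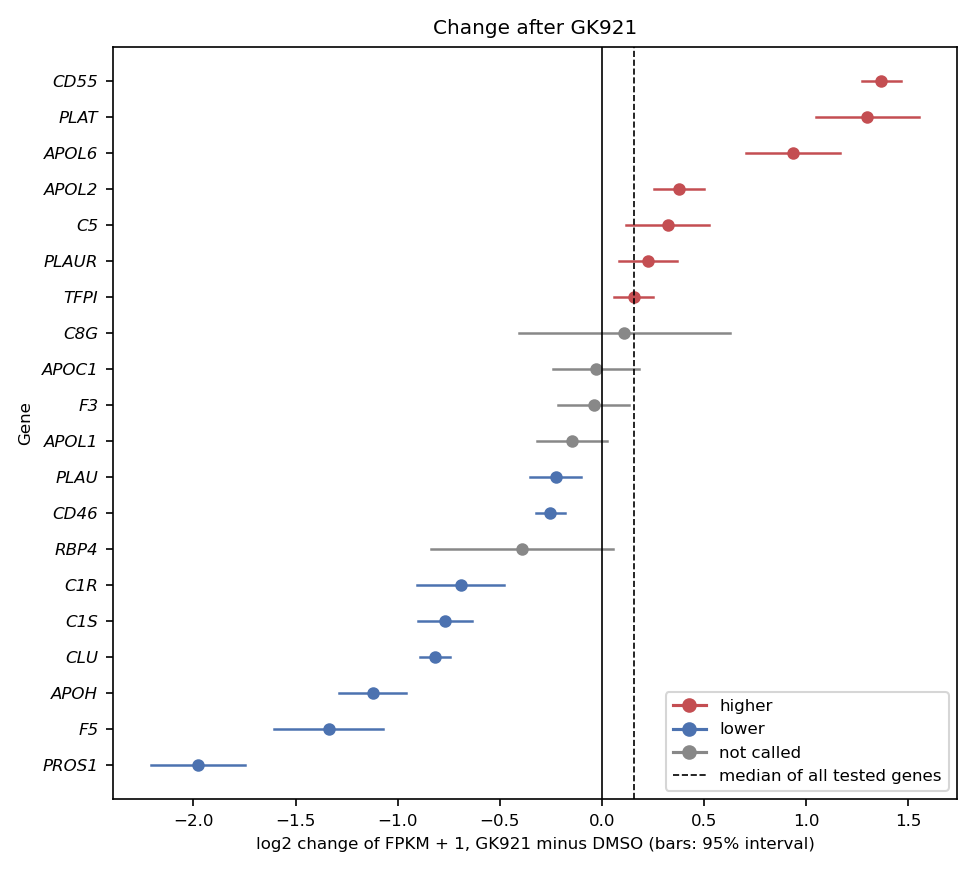
Log2 change of FPKM + 1 after GK921 for the same 20 genes, with 95% intervals from the limma fit; red genes were called higher, blue lower and grey not called. Changes ran from -1.98 for PROS1 to 1.37 for CD55, and the dashed line marks the median of all tested genes at 0.16.

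Carrier and acute-phase proteins were nearly absent. ALB, the main carrier protein of plasma, did not pass 0.14 FPKM in any library, and TTR, TF, HP, HPX, ORM1 and ORM2 stayed at or under 0.77 FPKM. AHSG, which binds calcium phosphate in plasma, reached 1.03 FPKM in 1 GK921 library and overlapped between the groups. ORM1 and ORM2 are near-identical copies, as are HP and HPR, so their reads may be split between them. RBP4, which carries retinol, was the only one of the 9 with a mean over 1 FPKM. It was at 11.22, 7.28 and 8.3 FPKM in DMSO and 4.71, 6.78 and 8.39 after GK921. Its groups overlapped, and the log2 change of -0.39 (95% interval -0.84 to 0.06) was not called (limma adjusted p = 0.0979). A fall was called with median-ratio scaling (-0.54, limma adjusted p = 0.0318) and quantile normalization (-0.60, 0.0238), and without the third GK921 library (-0.56, 0.0304).

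HPX, which binds free heme, stood out among the silent genes of this class. It was at 0.24, 0.19 and 0.27 FPKM in DMSO and 0.77, 0.53 and 0.55 after GK921, so the groups did not overlap. In a fit with no limit on low values its log2 change was 0.39 ± 0.078 (SE, limma adjusted p = 0.00393). The sequence before its start site is shown because it holds the composite element TGATGNAAN of ATF4 and C/EBP factors, in capitals, 1 of 7 motifs searched on both strands of 300-base promoter windows (250 bases before to 50 after the start site). The window is from RefSeq in GRCh38.p14, printed 5′ to 3′ on the minus strand from the first base to the base before the start site, chr11:6440988-6441237.

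HPX: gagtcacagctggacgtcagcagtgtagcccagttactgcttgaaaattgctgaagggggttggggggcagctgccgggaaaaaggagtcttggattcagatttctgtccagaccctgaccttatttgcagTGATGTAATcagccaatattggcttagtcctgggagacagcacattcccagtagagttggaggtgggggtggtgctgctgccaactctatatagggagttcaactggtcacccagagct

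Among 40 matched genes with 57 windows that element was in 2 windows, those of HPX and RBP4, and it was in 3.61% of all 35116 windows. RBP4 did not rise (log2 change -0.39, not called), and a link between the element and the change of HPX was not tested. A match describes these letters and is not a site of binding.

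Secreted apolipoproteins were silent except for a few. APOA2, the second protein of high-density lipoprotein, was listed at 0 in all libraries, and APOC3 in all but 1. APOB, the scaffold of low-density lipoprotein, was at 0.29, 0.4 and 0.35 FPKM in DMSO and 0.1, 0.02 and 0.02 after GK921. APOA1 (0.1 to 0.18 FPKM in DMSO) and APOA4 (0.32 to 0.88) were listed at 0 in the 3 GK921 libraries. All 3 of these genes were lower in GK921 at levels near the detection step, and each was called in the fit with no limit on low values (limma adjusted p = 0.00165, 0.0201 and 0.00252). An antisense gene covers 43.1% of the exonic bases of APOA4, so its level is uncertain. APOE, which targets lipoprotein remnants to receptors, was silent at 0.477 ± 0.104 FPKM in DMSO and 0.5 ± 0.125 with GK921 (here and below, mean ± SD with n = 3 per group). APOM, the carrier of sphingosine 1-phosphate, reached 1.1 FPKM in 1 DMSO library and overlapped between the groups.

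APOH and APOC1 were the expressed members of this class. APOH, or beta-2-glycoprotein I, which binds anionic phospholipids (chromosome 17, 66212033 to 66256525 in GRCh38), was at 40.01, 39.95 and 35.67 FPKM in DMSO and 18.51, 15.94 and 17.02 after GK921. All treated values lay under all control values, a 2.25-fold fall (log2 change -1.12 ± 0.072, limma adjusted p = 8.87e-07). APOC1, an inhibitor of lipoprotein lipase and lipid transfer, was at 13.4 ± 1.05 and 13.1 ± 1.41 FPKM, and its log2 change of -0.03 (95% interval -0.24 to 0.18) was not called (limma adjusted p = 0.801). It lies 4.85 kb from APOE, so the pair differed in level within a single neighbourhood. In GENCODE release 29, 45.9% of the exonic bases of APOC1 are shared with another annotated locus on the same strand, so its level is uncertain.

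The products of apolipoprotein L genes act inside cells and, for APOL1, also in plasma as a factor that kills trypanosomes, and the 3 among the 55 (APOL1, APOL2 and APOL6) each had a mean over 1 FPKM. APOL4 and APOL5, which are not among them, were listed at 0 in all libraries. APOL6 was at 8.25, 9.69 and 8.38 FPKM in DMSO and 15.41, 19.74 and 18.04 after GK921. This was a 2.02-fold rise with groups apart (log2 change 0.93 ± 0.101, limma adjusted p = 2.99e-05). APOL2 rose 1.31-fold from 28.2 ± 1.17 to 36.9 ± 1.56 FPKM (limma adjusted p = 0.000192), and it was not called in a test against a 1.2-fold change (0.0643). APOL1, its neighbour 13.1 kb away on the opposite strand, did not follow, at 36 ± 2.82 and 32.4 ± 2.67 FPKM (log2 change -0.15, 95% interval -0.32 to 0.03, limma adjusted p = 0.109). APOL1 was called lower with median-ratio scaling (-0.31, limma adjusted p = 0.00493) and quantile normalization (-0.25, 0.015). It was also called lower without the third DMSO library (-0.20, 0.0448) or the third GK921 library (-0.21, 0.0339).

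The 3 fibrinogen chain genes moved in different directions at low levels. Fibrinogen is assembled from alpha, beta and gamma chains encoded by FGA, FGB and FGG, which sit together on chromosome 4 with 12 kb between FGB and FGA and 13.4 kb between FGA and FGG. FGA was at 1.39, 0.88 and 0.92 FPKM in DMSO and 0.2, 0.24 and 0.04 after GK921. FGB was at 0.6, 0.52 and 0.63 FPKM in DMSO and 0.07, 0 and 0 after GK921. Both were lower in all 3 treated libraries. FGG went the other way, from 0.23, 0.25 and 0.34 FPKM to 1.52, 1.51 and 1.15, a 5.1-fold ratio of means. With no limit on low values the log2 changes were -0.83 ± 0.118 for FGA, -0.63 ± 0.061 for FGB and 0.91 ± 0.090 for FGG (limma adjusted p = 0.000722, 9.28e-05 and 0.000107). The order of the chains thus went from FGA over FGB over FGG in DMSO to FGG over FGA over FGB after GK921.

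The sequences before the 3 start sites are given so that these neighbours with opposite changes can be compared. They are from RefSeq in GRCh38.p14, each 250 bases printed 5′ to 3′ on the gene's strand and ending just before the start site. FGB is at chr4:154562730-154562979 on the plus strand (the first of 2 listed start sites), FGA at chr4:154590743-154590992 and FGG at chr4:154612657-154612906, both on the minus strand. Capitals mark ATTAAC, the reverse complement of GTTAAT, letters found within a palindromic element of many liver promoters.

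FGB: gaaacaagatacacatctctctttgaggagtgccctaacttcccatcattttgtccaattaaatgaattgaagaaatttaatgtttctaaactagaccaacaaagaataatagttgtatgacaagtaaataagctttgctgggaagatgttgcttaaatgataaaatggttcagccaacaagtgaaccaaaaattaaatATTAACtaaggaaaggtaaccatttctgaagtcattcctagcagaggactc
FGA: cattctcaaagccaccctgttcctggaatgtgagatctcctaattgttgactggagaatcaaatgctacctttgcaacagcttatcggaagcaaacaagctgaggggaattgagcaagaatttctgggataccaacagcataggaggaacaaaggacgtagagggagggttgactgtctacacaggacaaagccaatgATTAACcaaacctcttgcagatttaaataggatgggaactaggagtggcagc
FGG: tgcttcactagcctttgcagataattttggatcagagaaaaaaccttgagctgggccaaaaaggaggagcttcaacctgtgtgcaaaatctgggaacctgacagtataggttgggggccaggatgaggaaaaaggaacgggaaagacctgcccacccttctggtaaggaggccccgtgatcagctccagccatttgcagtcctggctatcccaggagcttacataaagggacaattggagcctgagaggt

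GTTAAT on either strand was in the windows of FGB and FGA, 51 and 52 bases before the start site, and not in that of FGG. It was in 6.88% of all 35116 windows and in 13 of the 57 windows of the matched genes. The 13 windows belong to 11 genes: ALB, APOH, C1R, C5, CFI, F13B, F2, FGA, FGB, PLG and PROC. These letters were chosen after the sequences had been seen, and they lie within that longer palindrome. The exact palindrome was in none of these genes' windows, but also in only 2 of all 35116 windows (0.0057%), so its absence says little about these genes. Of the 11 genes, APOH and C1R fell, C5 rose, and the others had a mean under 1 FPKM. The remaining motifs searched (the ER stress response element, the unfolded protein response element core TGACGTGG, the C/EBP palindrome TTGCGCAA and a consensus NF-kappaB element) were in no window of these genes, against 0.0769%, 0.729%, 0.151% and 0.191% of all windows, which says only that these letters are not there.

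Clotting factor genes were mostly silent, with tissue factor and factor V as the exceptions. F9 and F11 were listed at 0 in all libraries, and F12 and F13B did not pass 0.15 FPKM. F3, or tissue factor, the membrane receptor that starts clotting, was at 9.52 ± 0.425 and 9.24 ± 0.522 FPKM and was not called (log2 change -0.04, 95% interval -0.21 to 0.13, limma adjusted p = 0.647), although scaling by median ratios (-0.19, 0.0486) or quantiles (-0.23, 0.0245) called it lower. F5, the cofactor that speeds the activation of prothrombin (chromosome 1, 169514166 to 169586588), was at 7.21, 7.23 and 7.66 FPKM in DMSO. After GK921 it was at 2.84, 2.17 and 1.97, so the groups were apart and the mean fell 3.17-fold (log2 change -1.34 ± 0.118, limma adjusted p = 7.57e-06).

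F7 and F10, proteases of the initiating and common steps, are neighbours on chromosome 13 with 2.13 kb between them, and both were higher after GK921 at low levels. F7 was at 0.29, 0.18 and 0.27 FPKM in DMSO and 0.83, 0.68 and 0.67 after GK921. F10 was at 0.33, 0.47 and 0.32 FPKM in DMSO and 1, 1.21 and 1.53 after GK921. Neither gene's groups overlapped, and both were called in the fit with no limit on low values (log2 changes 0.47 and 0.71, limma adjusted p = 0.000987 and 0.000887). F2, or prothrombin, was lower (0.18 to 0.34 against 0.06 to 0.17 FPKM) and F8 higher (0.11 to 0.21 against 0.23 to 0.31), and neither was called (limma adjusted p = 0.0922 and 0.0691). F8 was called without the first DMSO library (0.0234) or the second GK921 library (0.0457).

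The anticoagulant PROS1 had the largest fall of the 20 tested genes on the log2 scale. Protein S, its product, is a vitamin K-dependent cofactor of activated protein C and of TFPI, and also a ligand of the TAM receptor kinases. PROS1 (chromosome 3, 93873033 to 93980003) was at 12.54, 12.22 and 14.43 FPKM in DMSO and 2.73, 2.71 and 2.27 after GK921. The lowest control value was thus several times the highest treated one, and the mean fell 5.08-fold (log2 change -1.98 ± 0.101, limma adjusted p = 2.06e-07). PROC, the protein C gene, was silent at 0.88, 0.53 and 0.38 FPKM in DMSO and 0.29, 0.14 and 0.06 after GK921. Its fall with no limit on low values (limma adjusted p = 0.0205) was lost without the first or second DMSO library (0.0528 and 0.0666). It was also lost without GK921 library 2 or GK921 library 3 (0.0848 and 0.102).

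TFPI, the inhibitor of tissue factor and factor Xa, was the most abundant clotting regulator of the 55 and changed little. It was at 76.18, 78.36 and 72.63 FPKM in DMSO and 81.88, 86.45 and 84.97 after GK921. The groups were apart and the log2 change of 0.16 ± 0.042 was called (limma adjusted p = 0.00832), but it equals the shift of the median gene. With median-ratio scaling the change was -0.0092 and not called (limma adjusted p = 0.853).

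Plasminogen was absent while its activators were expressed. PLG did not pass 0.03 FPKM. PLAT, or tissue plasminogen activator, was at 2.5, 3.34 and 3.19 FPKM in DMSO and 8.21, 9.24 and 9.08 after GK921, a 2.94-fold rise with groups apart (log2 change 1.30 ± 0.11, limma adjusted p = 5.85e-06). PLAU, or urokinase, fell 1.18-fold from 29.2 ± 1.31 to 24.8 ± 0.732 FPKM (limma adjusted p = 0.00453). Its receptor gene PLAUR rose 1.18-fold from 16.8 ± 0.921 to 19.8 ± 0.555 FPKM (0.00867). Tissue activator and urokinase thus moved in opposite directions, with PLAU still higher in level than PLAT in both groups. Neither PLAU nor PLAUR was called against a 1.2-fold change (limma adjusted p = 0.988 and 0.953), and PLAUR was not called with median-ratio scaling (0.334) or quantile normalization (0.26). An annotated gene on the opposite strand covers 28.7% of the exonic bases of PLAU, and the sources used here do not say whether counting used strand.

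Complement components were represented by the C1 proteases and little else. C1R and C1S encode these proteases, which act at the start of the classical pathway. The 2 genes lie 9.17 kb apart on chromosome 12 (C1S at 6988259 to 7071032, C1R at 7080199 to 7092607). C1S was at 29.09, 30.04 and 27.55 FPKM in DMSO and 16.7, 15.9 and 17.01 after GK921. C1R was at 8.26, 8.08 and 8.35 FPKM in DMSO and 5.01, 4.15 and 5.03 after GK921. Both fell with groups apart, C1S 1.75-fold (log2 change -0.77 ± 0.058, limma adjusted p = 2.73e-06) and C1R 1.74-fold (-0.69 ± 0.093, 0.000128), and the difference between the pair was not tested.

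C3, the central component that all pathways activate, did not pass 0.13 FPKM, and C4A did not pass 0.14 FPKM. C4A has a near-identical copy in C4B, which was at most 0.06 FPKM, so the level of each copy is uncertain. C5, the source of the C5a peptide and of the first part of the membrane attack complex, rose 1.32-fold from 3.68 ± 0.106 to 4.85 ± 0.0351 FPKM (limma adjusted p = 0.00955). That call was lost with median-ratio scaling (log2 change 0.19, limma adjusted p = 0.088) and quantile normalization (0.07, 0.472), and against a 1.2-fold change (0.421). C8G, a lipocalin-like chain of C8, was at 2.19, 0.68 and 1.03 FPKM in DMSO and 1.51, 1.33 and 1.34 after GK921, and was not called (log2 change 0.11, 95% interval -0.40 to 0.63, limma adjusted p = 0.671). Its DMSO values had an SD of 0.79 FPKM and its GK921 values one of 0.101.

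C2 and CFB, neighbouring genes on chromosome 6 for the homologous proteases of the classical and alternative pathways, were both silent and both higher after GK921. C2 was at 0.16, 0.1 and 0.07 FPKM in DMSO and 0.46, 0.37 and 0.59 after GK921 (limma adjusted p = 0.00248 with no limit on low values). CFB was at 0, 0.11 and 0.12 against 0.18, 0.13 and 0.2, and was not called (0.152). An annotated locus that spans both shares 46.6% of the exonic bases of C2 and 78.6% of those of CFB on the same strand, and how such reads were assigned is not known here. CFI, which cleaves C3b and C4b, is shared with another locus over 66.2% of its exonic bases and was silent, so these levels are uncertain.

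The regulators that protect cells from complement included the 2 most abundant of the 55 genes, CLU and CD46, which both fell, while CD55 rose. CD55, or decay-accelerating factor, which takes apart the C3 convertases on the cell surface, was at 40.53, 40.19 and 37.74 FPKM in DMSO and 101.86, 102.88 and 105.6 after GK921. It had the largest rise of the 20 tested genes on the log2 scale, 2.62-fold with groups far apart (log2 change 1.37 ± 0.042, limma adjusted p = 9.62e-09). CD46, the membrane cofactor for cleavage of C3b and C4b, is in the same region, 365 kb from CD55 on chromosome 1, and fell slightly. It was at 148.24, 148.48 and 143.67 FPKM in DMSO and 122.89, 124.74 and 121.31 after GK921. The groups were apart and the fall was 1.19-fold (log2 change -0.25 ± 0.031, limma adjusted p = 7.43e-05), and it was not called against a 1.2-fold change (0.863). CD46 was thus 3.72 times CD55 in level in DMSO and 1.19 times after GK921.

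For comparison with other start sites, the 250 bases before that of CD55, the largest rise, and of PROS1, the largest fall, are given in the same way, CD55 at chr1:207321428-207321677 on the plus strand and PROS1 at chr3:93973897-93974146 on the minus strand. None of the 7 motifs was in either, so no letters are in capitals. G and C made up 64% of the CD55 bases and 57.6% of the PROS1 bases, against 33.2% before FGB.

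CD55: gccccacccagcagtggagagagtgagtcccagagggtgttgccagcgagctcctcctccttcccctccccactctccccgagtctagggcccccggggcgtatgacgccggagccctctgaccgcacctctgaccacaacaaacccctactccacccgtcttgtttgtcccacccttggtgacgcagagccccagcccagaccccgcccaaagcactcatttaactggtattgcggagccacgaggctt
PROS1: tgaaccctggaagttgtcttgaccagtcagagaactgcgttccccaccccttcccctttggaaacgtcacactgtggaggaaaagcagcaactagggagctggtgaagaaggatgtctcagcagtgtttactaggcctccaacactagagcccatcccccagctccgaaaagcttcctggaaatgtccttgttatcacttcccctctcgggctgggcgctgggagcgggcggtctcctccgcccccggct

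CLU, or clusterin, an extracellular chaperone that also blocks the membrane attack complex, was the most abundant of the 55 genes. It was at 273.47, 268.25 and 268.73 FPKM in DMSO and 147.87, 152.57 and 157.82 after GK921. All treated values lay under all control values, a 1.77-fold fall (log2 change -0.82 ± 0.032, limma adjusted p = 4.05e-08). CD59, the surface inhibitor of the membrane attack complex that most cell types carry, was silent in this table, between 0 and 0.88 FPKM with overlapping groups. VTN, or vitronectin, did not pass 0.29 FPKM.

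Of the 35 genes with a mean under 1 FPKM, 3 were listed at 0 in every library and 14 of the other 32 had groups that did not overlap, 7 higher and 7 lower. That is 43.8%, against 20.3% of the 4369 genes of the table above 0 somewhere and with a mean under 1 FPKM. In the fit with no limit on low values, 11 of the 32 were called, 5 higher (HPX, FGG, F7, F10 and C2) and 6 lower (APOA1, APOA4, APOB, FGA, FGB and PROC), or 34.4% against 15.9% of those 4369 genes. The count was 10 to 13 when single libraries were left out and 11 with median-ratio scaling. The genes were chosen with earlier results of these data known, so the shares are a description. FGG and F10 were the only 2 of the 35 that stood at or above 1 FPKM in all 3 GK921 libraries.

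**Figure D3:**
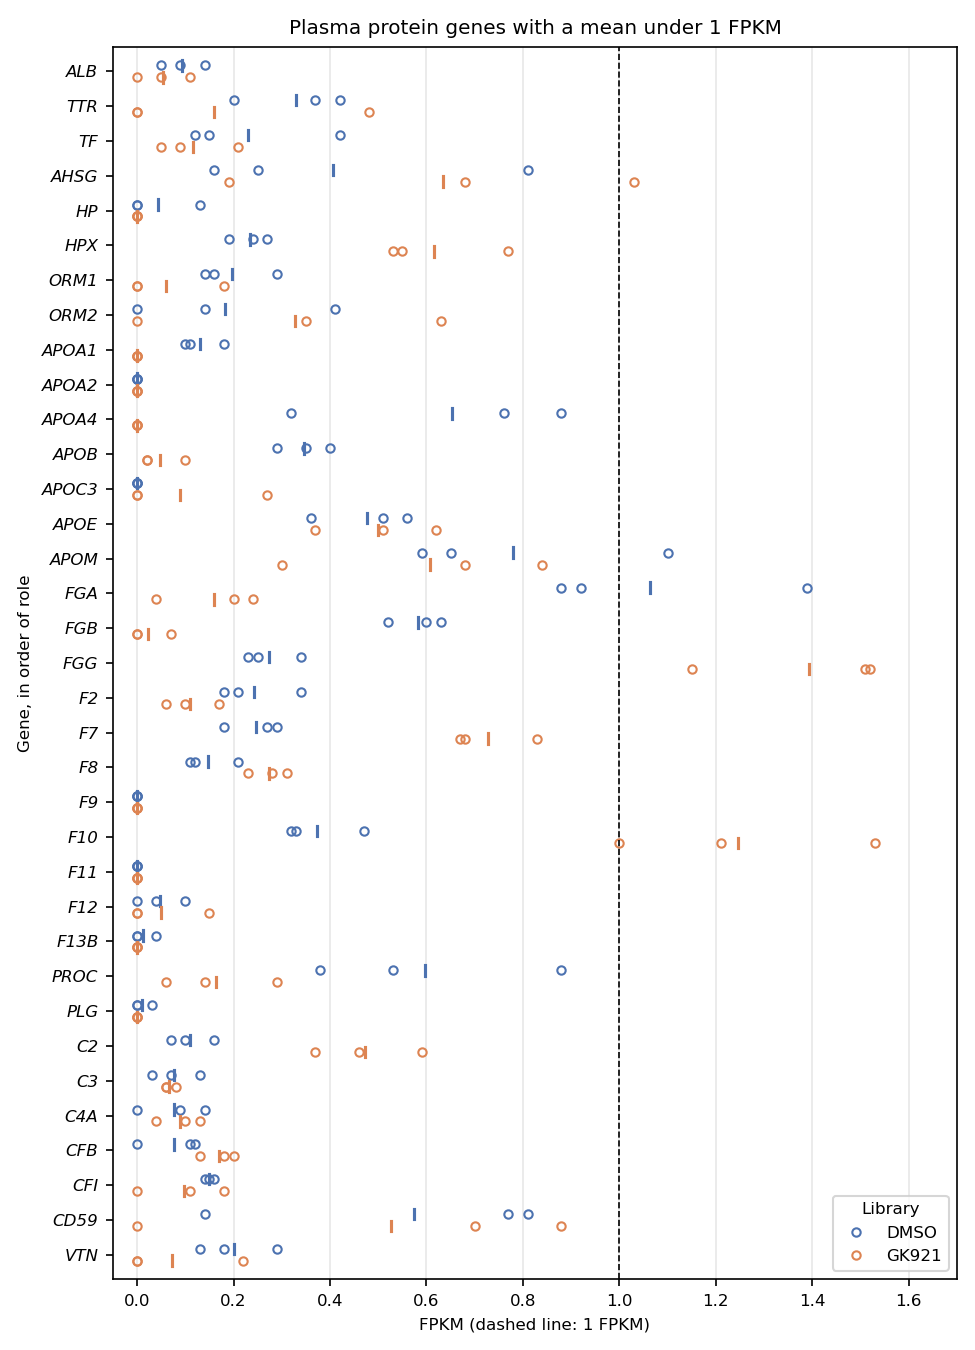
FPKM of the 35 genes with a mean under 1 FPKM in each library, on a linear axis, with DMSO in blue and GK921 in orange; open circles are libraries, ticks are group means (n = 3) and the dashed line is 1 FPKM. FGA falls to between 0.04 and 0.24 FPKM after GK921 while FGG reaches 1.15 to 1.52, and most other genes stay near 0 in both groups.

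Position brought together 19 of the 55 genes in 8 neighbourhoods of genes within 100 kb of each other. Neighbours with the same direction were C1R and C1S (both lower), F7 and F10 (both higher) and C2 and CFB (both higher, C2 alone called). C4A, in the same neighbourhood as C2 and CFB, had overlapping groups (means of 0.0767 and 0.09 FPKM). Neighbours that differed were FGG against FGA and FGB, and APOL2, which rose, beside APOL1, which was not called. In the cluster of APOA4, APOC3 and APOA1, the first and last were lower and APOC3 was at 0 in all libraries but 1.

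**Figure D4:**
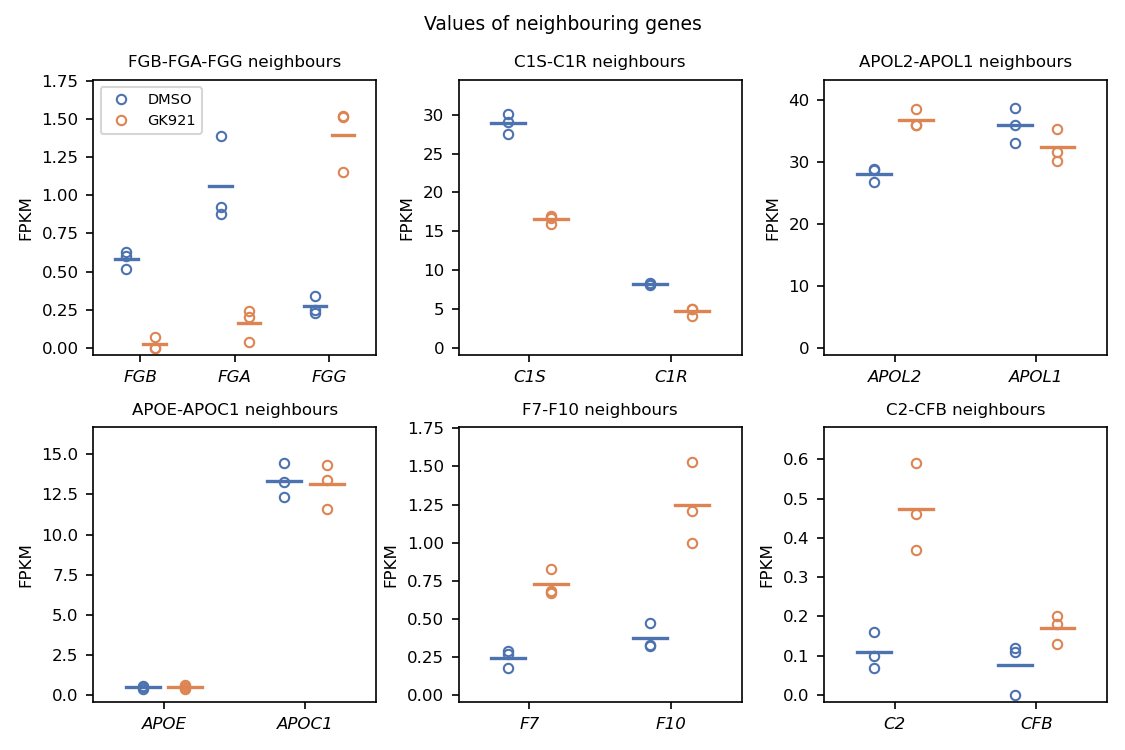
FPKM of 6 groups of neighbouring genes, each panel with its own linear axis, DMSO in blue and GK921 in orange; open circles are libraries and bars are group means (n = 3). C1S and C1R fall together, F7 and F10 rise together, and FGG rises where FGB and FGA fall.

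Other genes of these pathways, 94 on 4 lists, included 56 silent genes, or 59.6% against 40.2% of the table. Of the 31 tested, 9 passed the limit on low values through 1 group alone, which fixes their direction. Among the 22 with a mean of at least 1 FPKM in both groups, 5 rose, 14 fell and 3 were not called, beside 46.8% higher and 29.2% lower among all tested genes. With median-ratio scaling 7 of all 31 were higher and 19 lower, beside 36.9% and 37.3% of all tested genes. Those 31 include the 9 genes whose direction the limit fixed, so no balance of directions is read from the rescaled counts. Of 6 tested carrier and acute-phase genes, 3 entered through DMSO alone, and of the other 3, 2 fell and 1 was not called. ITIH2, a hyaluronan-binding plasma protein, was at 47.2, 44.92 and 44.23 FPKM in DMSO and 3.53, 4 and 3.61 after GK921, a 12.2-fold fall (limma adjusted p = 1.09e-09). FGL1, a fibrinogen-like hepatokine, fell 6.45-fold from 5.2 ± 1.97 FPKM, and is 1 of the 3 that entered through DMSO alone. Of the 6 lipoprotein genes that reached 1 FPKM on average in each group, 2 rose and 3 fell. The paraoxonase genes PON2 and PON3 fell 2.58-fold and 2.03-fold.

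Of 11 tested clotting and fibrinolysis genes, 3 entered through GK921 alone, and of the other 8, 1 rose and 7 fell. F2R and F2RL1, receptors cleaved by clotting proteases, fell 2.16-fold and 3.59-fold. GGCX, the carboxylase that modifies protein S and other vitamin K-dependent factors, fell 2.93-fold from 10.9 ± 1.03 to 3.73 ± 0.735 FPKM. Of the 5 complement genes whose mean reached 1 FPKM in each group, 2 rose and 2 fell. C5AR1, the receptor of C5a, rose from 2.1, 3.05 and 1.79 FPKM to 22.81, 25.08 and 23.27, or 10.3-fold (limma adjusted p = 1.01e-07). The chains of C4b-binding protein were called in opposite directions, with C4BPA 2.78-fold lower and C4BPB 1.83-fold higher. The C4BPB groups overlapped (2.63 to 4.53 FPKM in DMSO and 4.51 to 8.25 after GK921). C4BPB was not called with quantile normalization (limma adjusted p = 0.068), against a 1.2-fold change (0.0651) or without the second GK921 library (0.051).

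Liver-enriched transcription factors were expressed although most of the plasma protein genes were silent. Of 19 listed, 15 were tested, each with a mean of at least 1 FPKM in both groups, and 5 rose and 4 fell. These calls are 60% of the 15, against 75.9% of all tested genes. CREB3L3, a membrane-bound factor of liver lipid genes, fell 3.22-fold and PROX1 1.66-fold. CEBPB and STAT3, which carry acute-phase signals, rose 2.46-fold and 2.66-fold, and GATA6 3.27-fold. HNF4A (9.11 and 8.57 FPKM) and CEBPA (8.95 and 8.38 FPKM), named after their values had been seen, were not called (limma adjusted p = 0.579 and 0.501).

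**Figure D5:**
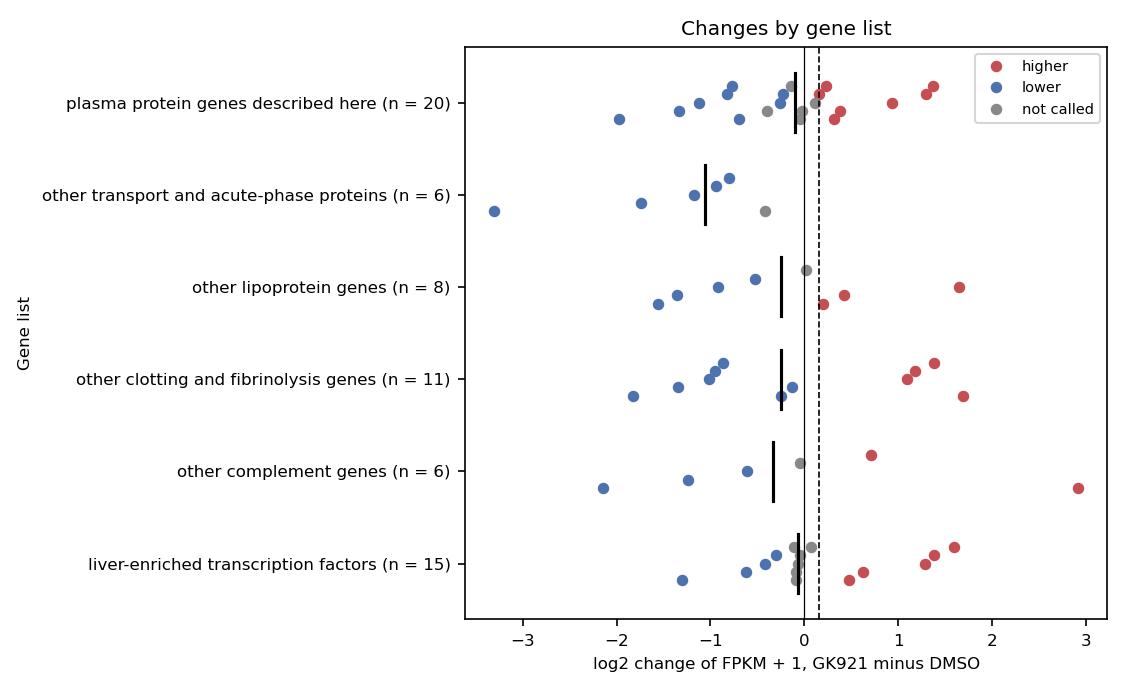
Log2 change of FPKM + 1 for each tested gene of the 55 and of 5 related lists; points are genes (red called higher, blue lower, grey not called), black bars are list medians, which include genes that passed the limit through 1 group alone, and the dashed line is the median of all tested genes. The 6 points of carrier and acute-phase genes lie left of 0, but 3 of them entered through DMSO alone, which fixes their side. Of the other 3, 2 were called lower and 1 was not called. Each of the other lists has called genes on both sides, also when genes that entered through 1 group alone are set aside.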

How the data were processed

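RNA extracted with Trizol was made into Illumina libraries, per the labels' protocols. The authors deposited 1 table of FPKM values. FastQC 0.11.5 is named in the submitters' processing notes, as are the aligner HISAT2, featureCounts, edgeR and the build hg38. Gene annotation and strand setting: neither is stated in the sources. FPKM is relative to each library, and the values summed to between 821498 and 836182, so a change in RNA per cell is not visible.

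Values were used as deposited. limma 3.58.1 in R 4.3.3 was fitted to log2(FPKM + 1) of the 11573 genes reaching a mean of 1 FPKM, with treatment as the only term and an intensity trend. Log2 changes are on that scale and so understate the change of low genes. Folds were computed from the group means in FPKM. The fit was tested on simulated data in which few genes were changed, so that test does not bear on how these data are scaled. No pair of replicates shared more than 0.389% of its tested values exactly. Positions came from GENCODE release 29 (GRCh38).

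The 55 genes and the lists were chosen with earlier results of these data known. All tested genes of the 55 are named, with values per library for called genes with an absolute log2 change of at least 0.58 or a mean of at least 50 FPKM. From each related list, up to 3 called genes per direction with at least 5 FPKM in the higher group were named. Some genes that this rule names are not reported here. Alternatives were the pseudocount, the limit on low values, rescaling, the replicate number as a block, the trend, a test against a 1.2-fold change (treat) and leaving out each library. Leaving out libraries and median-ratio scaling in the fit with no limit on low values were added after seeing the data.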

Additional observations from a re-analysis of the deposited data

How the results depend on the processing

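Over 15 alternatives, 277 of 297 results for the 20 tested genes kept their side of the threshold, 9 gained a call and 10 lost one. In 1 more, a called gene changed sign and lost its call (TFPI, -0.0092 with median-ratio scaling). Genes called in neither fit could also change sign and were counted as kept. C8G did so with quantile normalization (-0.13), and APOC1 without the second DMSO library (0.027). The same call held for 11 of the 20 in every alternative that tested the gene. F5, C5 and C8G were not tested with the limit at a mean of 5 FPKM. The genes called higher numbered 12 with no limit on low values, 4 with median-ratio scaling and 3 in the test against a 1.2-fold change, and those called lower numbered 14 with no limit. The median log2 change was -0.15 with a mean of at least 5 FPKM, -0.25 with median-ratio scaling and -0.24 with quantile normalization, and ran from -0.116 to -0.0847 when single libraries were left out. Calls among all tested genes numbered 5730 against a 1.2-fold change and 8384 to 8474 without single libraries. Silent genes numbered 21 under 0.5 FPKM in every library, 35 by the mean, and 30 to 31 without single libraries. Deviations from the group means correlated little between same-numbered libraries (0.0305, 0.0473 and -0.00207), against -0.0573 to 0.0291 between differently numbered ones. With 3 libraries per group these deviations are tied to each other, so whether the numbers pair the libraries is not settled. With the replicate block 8706 genes were called and the same 7 and 8 of the 55 were higher and lower. Among genes with overlapping groups and a mean under 1 FPKM, TTR and VTN were called lower without GK921 library 2 and ORM1 without GK921 library 1, in the fit with no limit. Depth limits the values under 1 FPKM most.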
